A study of Mus musculus with 6 samples.

Results

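The 38 genes described here encode guidance molecules of the ephrin, Slit and netrin systems and their receptors, out of 49671 genes counted. They were chosen by name: 12 Eph receptors, 8 ephrins, 3 Slits, 4 Robo receptors, 3 netrins, 5 netrin receptors (Unc5 and Dcc), and neogenin with its ligands Rgma and Rgmb. Levels were measured by RNA sequencing in 6 libraries of tumour cells, 3 of a GFP and 3 of a Tomato fraction. Cancer cells of the mouse pancreatic line FC1199 were placed in the pancreas of C57BL/6J mice aged 8 weeks that carried the Rosa-mTmG reporter and Fabp4-Cre, and cells were sorted after 4 weeks of growth, at age 12 weeks. All groups share this genotype, tumour and age. In the reporter mice every cell of the host makes Tomato until Cre switches it to GFP, so GFP marks host cells in which the Fabp4 promoter was active at some time. The reporter was described for the mice and not for the implanted cancer cells. Fabp4 encodes a fatty acid-binding protein of fat cells, macrophages and some endothelium. Podoplanin-positive cells were sorted, and the labels call the GFP fraction cancer-associated fibroblasts derived from stellate cells and the Tomato fraction those of other origin. Nothing in the labels says whether replicates came from separate animals, so the spread behind each p-value may be technical.

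Ephrins are bound to the cell surface and act on Eph receptor tyrosine kinases of the touching cell, and can also signal back into the cell that bears them. Ephrins of the A class hang on a lipid anchor, and those of the B class cross the membrane. Slits are secreted proteins that bind Robo receptors and repel growing axons, migrating cells and vessel sprouts. Netrins attract through Dcc or neogenin and repel through Unc5 receptors, while the repulsive guidance molecules Rgma and Rgmb bind neogenin and act as co-receptors of bone morphogenetic proteins. In the pancreas and its tumours these systems are known for roles in innervation, vessel growth and contact between cancer cells and stroma.

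Libraries held 33378377 to 42154933 counted reads, so that 1 CPM (counts per 1e+06 reads, library sizes scaled by the trimmed mean of M-values, TMM) stood for 33.5 to 42.9 reads. Fibroblast genes were abundant in both fractions, with a summed level of 64921 to 73081 CPM in GFP and 30649 to 44877 CPM in Tomato over 9 markers, of which 5 were higher in GFP and 4 did not pass. Col1a1 and Col1a2, both called higher, made up most of these sums. The 4 were Dcn (on average 7750 CPM in GFP and 8306 in Tomato), Lum (3677 and 2985), Vim (1176 and 1056) and Fap (102 and 87.4). For each of these the fractions overlapped. Other cell types also differed. Of 6 lymphatic endothelial markers 5 were higher in GFP (summed 305 to 483 against 25.1 to 79.0 CPM) and Ccl21a was at 0 in every library. Of 12 blood and general endothelial markers 7 were higher and 1 lower (334 to 389 against 144 to 208.5 CPM). All 8 mesothelial markers were lower in GFP (36.3 to 85.45 against 1067 to 1464 CPM), as were 6 of 10 epithelial and cancer cell markers (118 to 148 against 580 to 704 CPM) and all 10 macrophage markers (121 to 192 against 844 to 2051 CPM). The epithelial sum was mostly that of the 4 keratins Krt7, Krt8, Krt18 and Krt19, and without them it was 61.6 to 78.9 CPM in GFP and 72.0 to 106 CPM in Tomato, which overlap. Of 8 markers of pericytes and smooth muscle 3 were higher and 1 lower (132 to 194 against 143 to 230 CPM), and without Des, which did not pass, the sum was 69.8 to 115.5 CPM in GFP and 63.4 to 71.3 CPM in Tomato. Of 8 Schwann and neural markers 1 was higher and 1 lower (22.0 to 25.7 against 37.1 to 43.2 CPM), and Sox10 was at 0 in 5 libraries. Mbp set the direction of that sum, which without it was 11.9 to 16.1 CPM in GFP and 10.6 to 10.8 CPM in Tomato. These genes were left out after their values were seen. In such bulk samples fewer cells of a type and less RNA per cell cannot be told apart. Their part in the results that follow was not tested unless a value is given.

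The comparison asked which guidance genes differ between the fractions. Higher in GFP were 14 of the 38 genes, among them all 3 Slits, Robo1, Robo4, Epha3, Ephb2, Ephb3, Ephb4, Ntn4 and Unc5a. Lower in GFP were 5, namely Epha2, Ephb6, Efna1, Efna2 and Efnb3. The remaining 19 were 13 that did not pass the test and 6 with too few reads to be tested. Calls are those of the quasi-likelihood test of edgeR at a Benjamini-Hochberg adjusted p under 0.05 over all 15608 genes tested. Of the 32 members tested, 43.8% were called higher, where 13.1% of all genes tested were. Those called lower made up 15.6%, close to the 15.7% of all genes tested, so that the number of lower members does not stand out. Calls in either direction came to 59.4% of the members tested against 28.9% of all genes. For 24 of the 32 (75%) every library of one fraction lay above every library of the other, as was so for 48.6% of all genes tested. The median log2 fold change (GFP over Tomato) of the 32 was 0.36, against 0.00 for all genes tested. A gene with enough reads in a single fraction passed the filter, so these shares describe the members tested and not all 38. Members were also chosen with earlier results of these data known, so the shares are a description and no independent test. Scaling by library size alone, which moved the median of all genes tested to -0.16, left 11 members higher and 7 lower. Without Tomato replicate 2, 8 were higher and 4 lower, while the shares of all genes tested called higher and lower also fell, to 5.21% and 9.56%.

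**Figure D1:**
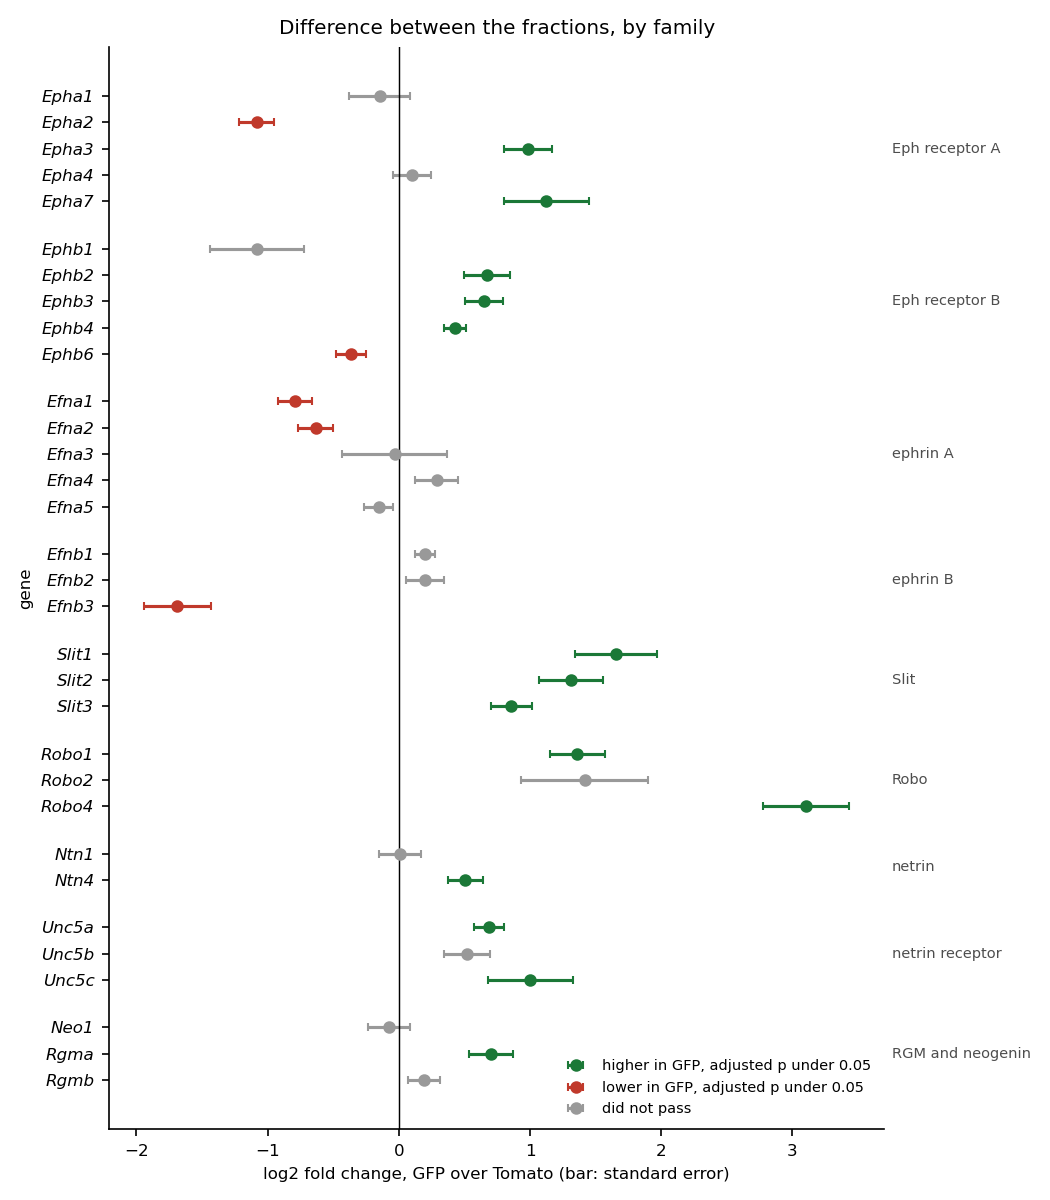
Log2 fold change of GFP over Tomato (x axis) for the 32 members tested (y axis, grouped by family); bars are standard errors from the edgeR fit over 3 libraries per fraction, and colour gives the call. All 3 Slits lie to the right of 0, Robo4 lies farthest right at 3.11, and the lowest value is that of Efnb3 at -1.69.

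Per length of merged exons (RPKM, CPM per kilobase), Slit3 was the highest member in both fractions, at 138 ± 17.8 RPKM in GFP and 76.2 ± 13.9 RPKM in Tomato (SD, n = 3 here and below). Next in both fractions came Efnb1 (31.9 ± 0.940 and 27.7 ± 0.317 RPKM), Ntn4 (24.7 ± 2.05 and 17.3 ± 2.90 RPKM) and Ephb4 (18.4 ± 1.10 and 13.7 ± 0.673 RPKM). In this order each gene lay above the next by more than the standard deviation of either. Using the longest coding transcript as length, chosen after seeing the data, left the same 4 genes at ranks 1 to 4 in both fractions. Summed per family, the Slits had 145 ± 18.3 RPKM in GFP and 79.0 ± 14.6 in Tomato, and the Robo receptors only 2.66 ± 0.345 and 0.773 ± 0.202. The A-class ephrins were the single family whose summed level was smaller in GFP in every library, at 22.5 to 24.9 against 30.4 to 32.4 RPKM. The level of the B-class Eph receptors was 33.8 ± 2.24 and 27.5 ± 1.99 RPKM, and that of the A-class receptors 15.9 ± 1.68 and 12.2 ± 1.504.

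**Figure D2:**
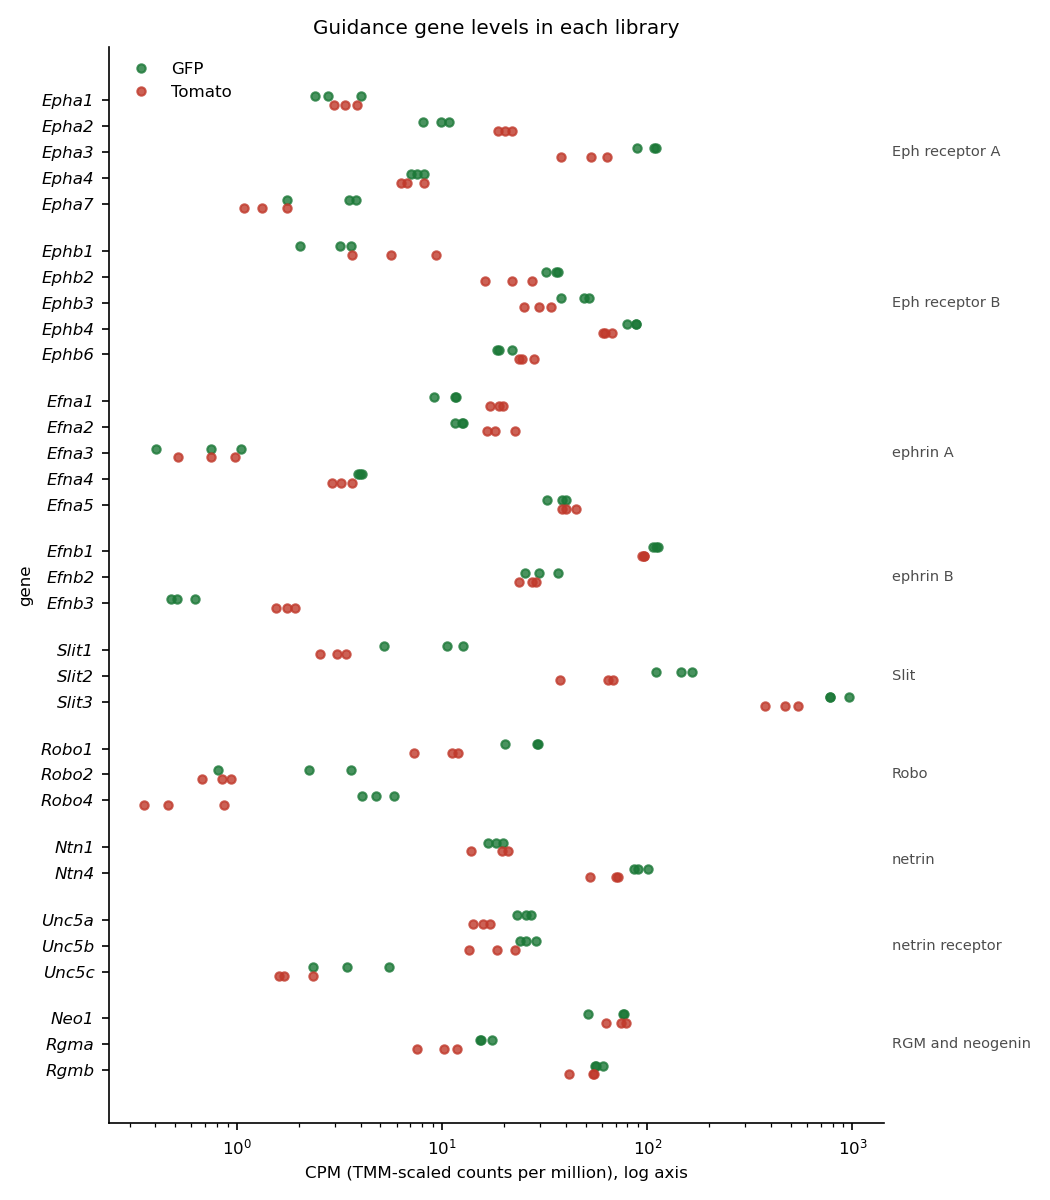
TMM-scaled CPM on a log axis for each of the 32 members tested, 1 point per library, green for GFP and red for Tomato. Slit3 is at the right, between 374 and 963 CPM, and the fractions of Slit1, Slit2, Slit3, Robo1 and Robo4 do not overlap.

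Slit ligands were higher in GFP. Slit3 (chromosome 11, 35121224 to 35708507, plus strand, GRCm38 here and below), a ligand known to act on vessels as well as axons, had 963, 773 and 778 CPM in GFP replicates 1 to 3 and 543, 470 and 374 CPM in Tomato. Every GFP library was above every Tomato library, and the log2 fold change was 0.86 ± 0.16 (SE, adjusted p = 0.00595 by edgeR). Slit2 (chromosome 5, 47983138 to 48307733, plus strand) is a ligand of Robo1 and Robo2. It had 146, 110 and 166 CPM in GFP and 68.3, 64.2 and 37.5 CPM in Tomato. Again the fractions did not overlap (1.31 ± 0.25, adjusted p = 0.00915). Without a filter on low counts the adjusted p of Slit2 was 0.0552. Slit1 (chromosome 19, 41600257 to 41743665, minus strand), best known from the brain, was far lower in level, with 10.5, 5.22 and 12.6 CPM in GFP and 3.41, 3.06 and 2.52 CPM in Tomato (1.66 ± 0.31, adjusted p = 0.00731). The Slit1 value of GFP replicate 2 was less than that of its 2 fellow libraries and still above all of Tomato. Slit3 made up 95.1 ± 1.24% of the summed Slit RPKM in GFP and 96.6 ± 0.401% in Tomato. For comparison on the CPM scale, the fibroblast marker genes Col1a1 (33972 ± 3284 against 13788 ± 3299 CPM) and Col1a2 (20533 ± 1563 against 10689 ± 2129 CPM) differed in the same direction, with log2 fold changes of 1.30 and 0.94. The rest of that marker list was split. Pdgfrb (0.80), Thy1 (0.52) and Pdgfra (0.43) were called higher, and Lum (0.30), Fap (0.22), Vim (0.16) and Dcn (-0.10) did not pass.

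Robo receptors, of which Robo1 and Robo2 bind Slits, were low in level. Robo1 (chromosome 16, 72308306 to 73046095, plus strand), a broadly expressed receptor, had 29.2, 20.2 and 28.8 CPM in GFP and 12.0, 11.1 and 7.30 CPM in Tomato. The fractions did not overlap, and the log2 fold change was 1.36 ± 0.21 (adjusted p = 0.00328 by edgeR). Robo4 (chromosome 9, 37401897 to 37415115, plus strand), the endothelial member of the family, had 5.84, 4.78 and 4.06 CPM in GFP and 0.863, 0.463 and 0.353 CPM in Tomato. At 8.60-fold it was the largest difference among the 32 members tested (3.11 ± 0.33, adjusted p = 0.000486). In each fraction the libraries fell in the same order for Robo4 as for the summed lymphatic endothelial markers, which were 483, 348 and 305 CPM in GFP and 79.0, 50.2 and 25.1 CPM in Tomato. The summed blood and general endothelial markers had that order too, at 389, 356 and 334 CPM in GFP and 208.5, 207.5 and 144 CPM in Tomato. Tomato replicates 1 and 2 were nearly equal in that sum. Eng, the largest part of it, had that order in Tomato only. Its values were 177, 193 and 193 CPM in GFP and 94.7, 84.7 and 44.4 CPM in Tomato. The summed fibroblast markers also fell in the Robo4 order in Tomato (44877, 37049 and 30649 CPM), but not in GFP (73081, 64921 and 66316 CPM). The part of endothelial cells in the Robo4 value was not tested. Robo4 made up 34.9 ± 6.09% of the summed Robo RPKM in GFP and 13.3 ± 3.38% in Tomato, and Robo1 59.0 ± 5.08% and 79.7 ± 3.17%. These values depend on the length taken. By the longest coding transcript, chosen after seeing the data, Robo4 made up 21.1 ± 4.39% and 7.08 ± 1.95%, Robo1 72.5 ± 3.94% and 86.2 ± 1.88%, and the summed Robo level was 4.74 ± 0.693 and 1.56 ± 0.391 RPKM. Robo2, a second Slit receptor, varied widely in GFP. Its values were 0.808, 2.24 and 3.58 CPM there and 0.933, 0.849 and 0.679 CPM in Tomato, so that GFP replicate 1 lay within the Tomato range, and it did not pass (1.42 ± 0.48, adjusted p = 0.0587). Robo2 passed without GFP replicate 1 (1.82, adjusted p = 0.00918) and by DESeq2 (1.42, adjusted p = 0.0169). Robo3, a divergent receptor that lies next to Robo4 on chromosome 9, was not tested, with 11, 6 and 4 reads in GFP and 2, 1 and 1 in Tomato. Its log2 fold change in the fit without a filter was 2.43 (adjusted p = 0.0444 by edgeR).

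**Figure D3:**
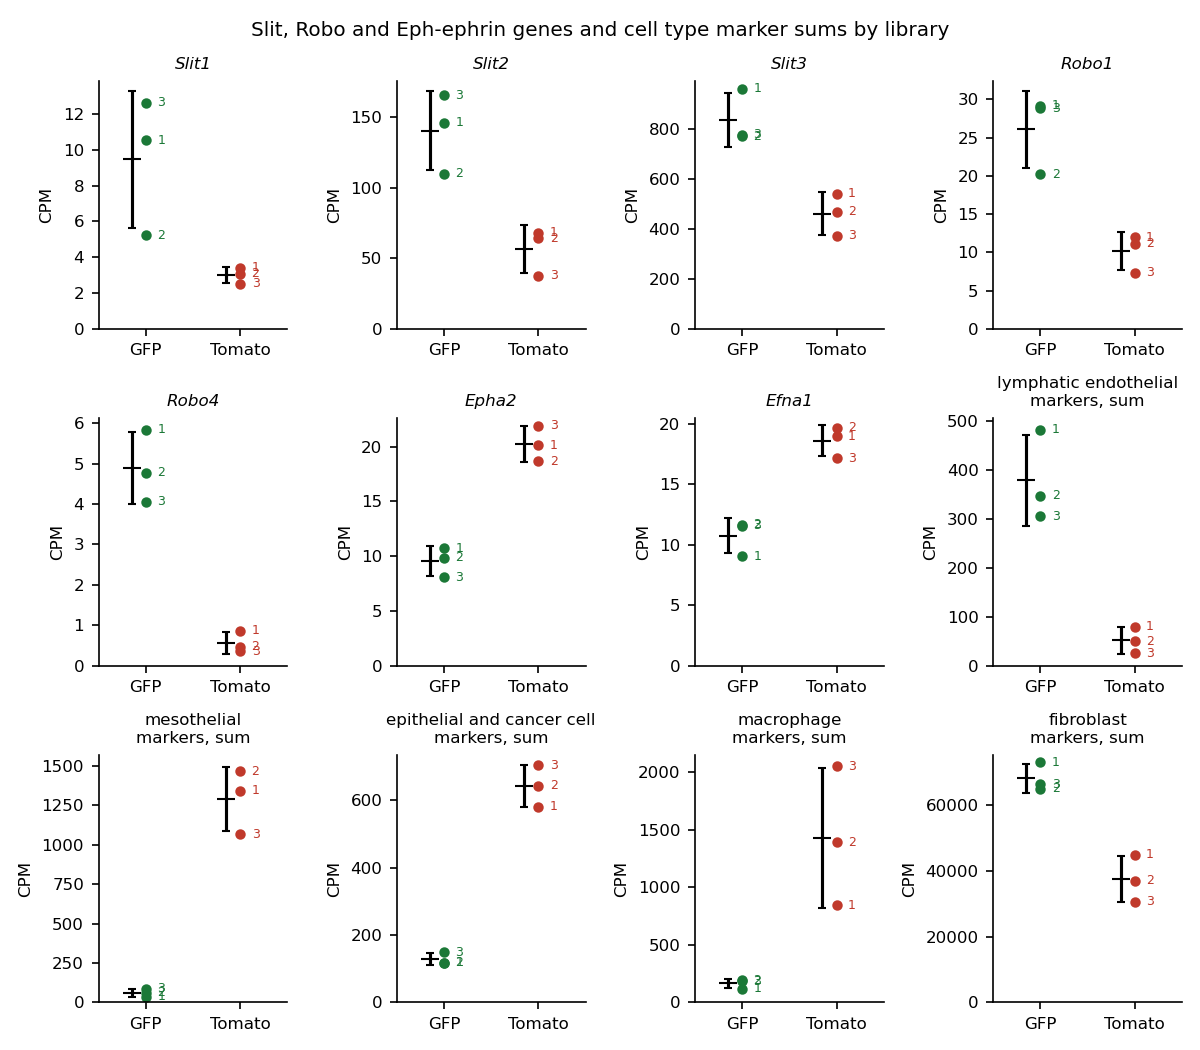
CPM per library (points, numbered by replicate) for 7 members and for the summed markers of 5 cell types, with the mean ± SD (n = 3) at the left of each group; axes start at 0. Slit1 to Slit3, Robo1, Robo4 and the lymphatic and fibroblast sums are above Tomato in every GFP library, while Epha2, Efna1 and the mesothelial, epithelial and macrophage sums are below. The fibroblast sum is mostly that of Col1a1 and Col1a2.

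Sequences before the start site are shown for members of the Slit, Robo and Eph-ephrin systems that were called, 4 higher in GFP (Slit2, Robo1, Robo4, Epha3) and 2 lower (Epha2, Efna2), so that genes which differ together can be compared. They come from RefSeq (GRCm38.p6), 5′ to 3′ on the strand of the gene. Each is a window of 250 bases before the start, ended where GENCODE places an exon. The windows are chr5:47982905-47983137 for Slit2, chr16:72662899-72663148 for Robo1, chr9:37401722-37401896 for Robo4, chr4:141300971-141301220 for Epha2 and chr10:80179232-80179481 for Efna2, all on the plus strand, and chr16:63864176-63864425 on the minus strand for Epha3. The Robo1 window lies inside the gene as GENCODE draws it, before a later start. Capitals mark matches, on either strand, to TATAAA (the TATA box), to GGGCGG (a GC box), to CACGTG (an E-box), to CATTCC (a motif of TEAD factors) or to TGACTCA (a motif of AP-1).
Slit2: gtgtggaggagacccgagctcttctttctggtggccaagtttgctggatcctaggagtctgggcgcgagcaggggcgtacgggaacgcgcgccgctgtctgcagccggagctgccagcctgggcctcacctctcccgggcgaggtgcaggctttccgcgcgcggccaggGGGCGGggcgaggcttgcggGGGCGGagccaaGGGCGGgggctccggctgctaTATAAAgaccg
Robo1: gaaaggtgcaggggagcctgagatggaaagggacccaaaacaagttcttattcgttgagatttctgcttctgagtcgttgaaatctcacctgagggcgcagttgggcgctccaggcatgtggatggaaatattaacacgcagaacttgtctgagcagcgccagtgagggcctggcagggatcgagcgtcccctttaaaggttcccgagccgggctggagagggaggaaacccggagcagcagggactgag
Robo4: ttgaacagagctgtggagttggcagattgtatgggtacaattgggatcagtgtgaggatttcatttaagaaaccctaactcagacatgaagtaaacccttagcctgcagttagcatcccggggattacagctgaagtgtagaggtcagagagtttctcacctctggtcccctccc
Epha3: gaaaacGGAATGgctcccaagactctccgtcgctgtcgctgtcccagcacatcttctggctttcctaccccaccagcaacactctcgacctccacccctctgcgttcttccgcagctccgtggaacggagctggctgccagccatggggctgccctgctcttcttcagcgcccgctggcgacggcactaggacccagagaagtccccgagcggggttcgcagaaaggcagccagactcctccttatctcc
Epha2: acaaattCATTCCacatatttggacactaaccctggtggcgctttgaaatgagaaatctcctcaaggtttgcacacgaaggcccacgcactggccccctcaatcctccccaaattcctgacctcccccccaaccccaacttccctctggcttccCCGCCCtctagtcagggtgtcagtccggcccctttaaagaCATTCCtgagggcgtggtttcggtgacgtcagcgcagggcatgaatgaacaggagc
Efna2: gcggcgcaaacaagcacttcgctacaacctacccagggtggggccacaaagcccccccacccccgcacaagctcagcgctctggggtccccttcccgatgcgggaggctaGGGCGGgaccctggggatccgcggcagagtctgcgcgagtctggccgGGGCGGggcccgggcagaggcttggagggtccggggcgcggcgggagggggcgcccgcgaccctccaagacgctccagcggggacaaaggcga

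The windows differed among genes that were called in the same direction. GGGCGG occurred 3 times in the Slit2 window of 250 bases and 6 times in that of Slit3 but not in the windows of Robo1, Robo4 and Epha3. Among the genes lower in GFP, Epha2 had 1 such match and Efna2 had 2. GC content was 69.6% for Slit2 and 49.6% for Robo4, with 25 and 2 CpG pairs. Promoter windows were found for 32 of the 38 genes, 39 windows in all. Of these 69.2% held GGGCGG, against 32.7% of the 32851 windows in the table, and their median GC content was 65.6% against 52.4%. TATAAA was present in 10.3% of member windows and 12.4% of all windows, CATTCC in 12.8% and 12.6%, and CACGTG in 5.1% and 6.0%. TGACTCA was in none of the 39 member windows and in 4.5% of all windows. A match describes letters in these windows and shows no bound factor.

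Eph receptors of the A class went both ways. Epha3 (chromosome 16, 63543534 to 63864175, minus strand), a receptor of mesenchyme and of tumour stroma, was the most abundant of them per length. It had 110, 89.1 and 108 CPM in GFP and 63.9, 53.4 and 37.8 CPM in Tomato. It was called higher by edgeR (log2 fold change 0.99 ± 0.18, adjusted p = 0.00716). All GFP libraries lay above all Tomato libraries. Epha2 (chromosome 4, 141301240 to 141329384, plus strand), a receptor widely expressed in epithelia and carcinomas, did the reverse. Its levels were 10.7, 9.85 and 8.09 CPM in GFP and 20.2, 18.7 and 21.9 CPM in Tomato, with no overlap (-1.08 ± 0.13, adjusted p = 0.00105). Beside it, the 4 keratins of the epithelial list were lower in GFP (Krt8 at 14.45 ± 2.35 against 171 ± 10.5 CPM). So were Epcam (4.94 ± 0.771 against 12.3 ± 2.61 CPM) and Cdh1 (3.54 ± 0.997 against 11.9 ± 5.31 CPM), while Cldn4, Cldn7, Muc1 and Sox9 did not pass. The summed mesothelial markers were 36.3 to 85.45 CPM in GFP and 1067 to 1464 CPM in Tomato. The part of either cell type in the Epha2 value was not tested. Within the summed A-class RPKM, Epha3 took 74.3 ± 1.85% in GFP and 48.4 ± 6.88% in Tomato, and Epha2 13.0 ± 2.22% and 36.1 ± 6.70%. Epha7, a receptor best known from the nervous system, was near the limit of the test: it had 3.53, 1.76 and 3.81 CPM in GFP and 1.75, 1.08 and 1.33 CPM in Tomato. It was called higher (1.13 ± 0.33, adjusted p = 0.0335), with GFP replicate 2 barely above Tomato replicate 1. That call was lost without GFP replicate 1 (adjusted p = 0.110), GFP replicate 3 (0.105), Tomato replicate 2 (0.115) or Tomato replicate 3 (0.0688). Epha4 (7.58 ± 0.580 against 7.08 ± 0.946 CPM) and Epha1 (3.06 ± 0.846 against 3.39 ± 0.451 CPM) did not pass, with log2 fold changes of 0.10 and -0.15. Exons of Epha1 overlap those of Zyx on the other strand, and the count for both strands held 61.8% of the reads of the 2 strand columns, so its level is uncertain. Epha5 and Epha8 had 1 read each in all 6 libraries.

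Among B-class receptors 3 of 5 were higher in GFP and 1 was lower. Ephb4 (chromosome 5, 137350109 to 137378669, plus strand), the receptor of ephrin-B2 that marks veins and lymphatic vessels, was the most abundant, with 88.1, 79.5 and 88.5 CPM in GFP and 61.1, 67.0 and 62.2 CPM in Tomato. The spread within each fraction was small and the fractions did not overlap (log2 fold change 0.43 ± 0.09, adjusted p = 0.00903 by edgeR). Scaled by library size alone it was 0.26 and not called (adjusted p = 0.0682). Ephb3, which sorts cells at boundaries in the gut, had 51.8, 38.02 and 49.3 CPM against 33.9, 29.65 and 25.2 CPM (0.65 ± 0.15, adjusted p = 0.0143). Ephb2 had 36.7, 35.8 and 32.1 CPM against 27.4, 21.9 and 16.2 CPM (0.67 ± 0.17, adjusted p = 0.0228). Both were higher in each GFP library than in any Tomato library. Ephb3 was not called when GFP replicate 1 (adjusted p = 0.0567) or Tomato replicate 2 (0.0548) was left out. Ephb2 was not called when GFP replicate 1 (0.0749), GFP replicate 2 (0.0694) or Tomato replicate 2 (0.0734) was left out. Ephb6, a receptor without kinase activity, was lower in GFP by a small margin (18.6, 18.9 and 21.9 against 28.1, 24.5 and 23.8 CPM, -0.36 ± 0.11, adjusted p = 0.0401). Leaving out any library but Tomato replicate 3 ended its call (adjusted p 0.0509 to 0.132). Ephb1 had 3.18, 3.58 and 2.03 CPM in GFP and 9.31, 5.61 and 3.64 CPM in Tomato, with no overlap. It did not pass (-1.08 ± 0.36, adjusted p = 0.0533). Tomato replicates of Ephb1 spread over more than the distance between the groups, and it was called when replicate numbers entered as a block (-1.03, adjusted p = 0.00432), by DESeq2 (-1.08, 0.00945), with library size scaling (-1.24, 0.0219) and without Tomato replicate 3 (-1.36, 0.0107).

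Of the A-class ephrins, 2 of 5 were lower in GFP and none higher. Efna1 (chromosome 3, 89271733 to 89281142, minus strand), a ligand of Epha2 that is made by epithelium and by endothelium under inflammatory signals, had 9.07, 11.7 and 11.6 CPM in GFP and 19.01, 19.7 and 17.2 CPM in Tomato. The fractions lay well apart (log2 fold change -0.79 ± 0.13, adjusted p = 0.00378 by edgeR). Efna2 (chromosome 10, 80179482 to 80190010, plus strand) had 11.6, 12.5 and 12.7 CPM against 16.5, 18.0 and 22.5 CPM (-0.63 ± 0.14, adjusted p = 0.0111). No GFP library reached the Tomato range for this ephrin either. Once exon length and GC content were corrected for, both stayed lower, by smaller margins: -0.48 for Efna1 (adjusted p = 0.0217) and -0.42 for Efna2 (0.0253), and with the replicate block as well -0.48 (0.0136) and -0.41 (0.0118). Efna5, the most abundant of the class in GFP by RPKM, had 36.9 ± 3.97 CPM in GFP and 41.0 ± 3.32 CPM in Tomato, a log2 fold change of -0.15 (adjusted p = 0.312). Scaled by library size alone it was called lower (-0.32, adjusted p = 0.0483), and its sign turned to 0.02 with the length and GC correction. Efna4 (3.98 ± 0.104 against 3.25 ± 0.367 CPM, 0.29, adjusted p = 0.215) passed as higher after the length and GC correction (0.59, adjusted p = 0.0266). Its exons overlap a gene on the other strand, as do those of Efna3, which was below 1 CPM on average in both fractions (0.731 ± 0.320 and 0.746 ± 0.231 CPM). For Efna3 the count for both strands held 62.7% of the reads of the 2 strand columns, so its level is uncertain.

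B-class ephrins were led by Efnb1 (chromosome X, 99136130 to 99148991, plus strand), which makes up boundaries between tissues in the embryo. Efnb1 had 111, 113 and 106 CPM in GFP and 96.0, 96.6 and 94.5 CPM in Tomato. Although the fractions did not overlap, the difference was small and did not pass (log2 fold change 0.20 ± 0.08, adjusted p = 0.0793 by edgeR). It passed after the length and GC correction (0.30, adjusted p = 0.0207). Efnb2, the ephrin of arteries and partner of Ephb4, had 36.7, 25.3 and 29.5 CPM against 28.5, 23.7 and 27.5 CPM (0.20 ± 0.14, adjusted p = 0.319). Here the fractions overlapped. Efnb3 (chromosome 11, 69554092 to 69560205, minus strand), known from the midline of the nervous system, was lower in GFP at a low level, with 0.512, 0.627 and 0.479 CPM against 1.75, 1.54 and 1.93 CPM (-1.69 ± 0.25, adjusted p = 0.00242). It rested on 263 reads in all 6 libraries.

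Netrin ligands differed from each other. Ntn4 (chromosome 10, 93640681 to 93747207, plus strand), a netrin of basement membranes that binds laminin, had 90.25, 85.7 and 101 CPM in GFP and 71.9, 70.2 and 52.3 CPM in Tomato, with no overlap (log2 fold change 0.51 ± 0.13, adjusted p = 0.0230 by edgeR). This call was lost without GFP replicate 1 (adjusted p = 0.0626), GFP replicate 3 (0.0771) or Tomato replicate 2 (0.0518), and when scaled by library size alone (0.35, 0.0595). Ntn1, the netrin of axon attraction, had 19.7, 18.4 and 16.7 CPM against 20.9, 19.7 and 13.8 CPM. Its fractions overlapped, and its log2 fold change was 0.01 ± 0.16 (adjusted p = 0.969) and fell on the other side of 0 under 6 of the 14 alternatives. Ntng1, a netrin held at the membrane, had 5 reads in all and was not tested.

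Unc5 receptors mediate repulsion by netrins. Unc5a (chromosome 13, 54949411 to 55006018, plus strand) had 25.6, 23.2 and 27.1 CPM in GFP and 17.15, 15.8 and 14.1 CPM in Tomato. It was higher in GFP in every library (log2 fold change 0.69 ± 0.11, adjusted p = 0.00358 by edgeR). Unc5b, the receptor also found on endothelial cells, had 24.0, 25.6 and 28.6 CPM against 13.55, 18.6 and 22.5 CPM, with no overlap, and did not pass (0.52 ± 0.18, adjusted p = 0.0550). With the replicate number as a block Unc5b was called higher (0.54, adjusted p = 0.00529), as it was with the block and the length and GC correction (0.44, 0.0150), by DESeq2 (0.52, 0.0297), without a filter on low counts (0.51, 0.0306) and without Tomato replicate 3 (0.69, 0.0124). Unc5c was low and rested on a narrow gap, with 2.34, 3.43 and 5.52 CPM in GFP and 1.61, 1.70 and 2.33 CPM in Tomato (1.002 ± 0.32, adjusted p = 0.0466). Its call was lost without Tomato replicate 1 (adjusted p = 0.0899), GFP replicate 2 (0.0900), Tomato replicate 2 (0.139) or GFP replicate 3 (0.62, 0.155), when scaled by library size alone (0.84, 0.0856) and after the length and GC correction (0.81, 0.120). Unc5c was called when replicate numbers entered as a block (0.95, adjusted p = 0.00647), also together with that correction (0.75, 0.0164). Unc5d had 7 reads in all, and Dcc, the attractive netrin receptor, had 1 read in all, so that Unc5a and Unc5b made up nearly all of the summed netrin receptor RPKM (58.2 ± 2.26% and 39.9 ± 1.81% in GFP).

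Neogenin and its ligands showed 1 call. Rgma, the ligand first found in the visual system, had 15.2, 17.5 and 15.5 CPM in GFP and 11.9, 10.2 and 7.55 CPM in Tomato (a log2 difference of 0.70 ± 0.17, adjusted p = 0.0167 by edgeR). The fractions did not overlap, and the call was lost without GFP replicate 2 (adjusted p = 0.0611) or Tomato replicate 2 (0.0553). Rgmb had 55.8, 60.7 and 56.0 CPM against 54.1, 55.3 and 41.6 CPM (0.19 ± 0.12, adjusted p = 0.249). The receptor gene Neo1 had 75.9, 51.6 and 77.2 CPM against 78.6, 74.2 and 62.9 CPM (-0.08 ± 0.16, adjusted p = 0.745). Neither passed, and the fractions of Neo1 overlapped.

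Libraries differed within the fractions as well. Tomato replicate 3 had the lowest Tomato value for 11 of the 14 members called higher, and Tomato replicate 1 the highest for 12. Among all genes tested, Tomato replicate 3 was lowest for 39.6% and Tomato replicate 1 highest for 37.5%. Tomato replicate 3 also had the lowest fibroblast sum (30649 CPM) and the highest macrophage sum (2051 CPM) of the Tomato fraction. The part of these cells in the members' values was not tested. In GFP, replicate 2 was lowest for 10 of the 14, and for 32.2% of all genes tested. Without Tomato replicate 3, 14 members were higher and 6 lower, and without GFP replicate 2 the counts were 11 and 4.

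**Figure D4:**
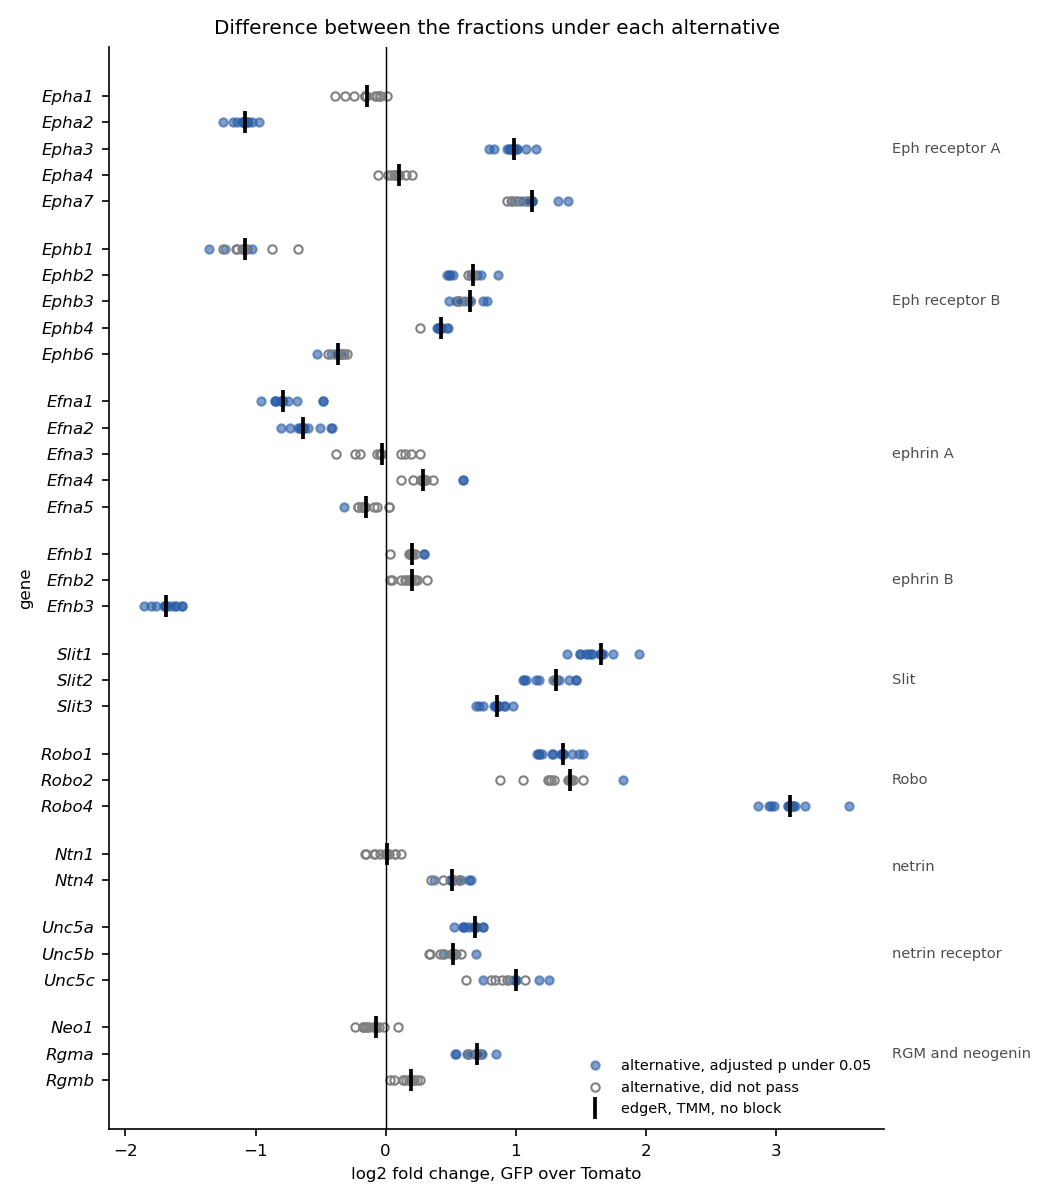
Log2 fold change of GFP over Tomato (x axis) for the 32 members tested, as fitted by edgeR with TMM scaling and no block (black bars) and under 14 alternatives (points, filled where the adjusted p was under 0.05). The points of Epha2, Epha3, Efna1, Efna2, Efnb3, Slit1, Slit3, Robo1, Robo4 and Unc5a are all filled, while those of Ephb6, Ntn4, Unc5c and Epha7 are mixed.

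Partner genes of these systems, a list of 58 written from textbook knowledge, were examined beside the members. Of the 57 with an identifier in the tables, 53 were tested, of which 8 were higher and 4 lower in GFP (median log2 fold change 0.27, against 0.00 for all genes tested). The higher calls were 15.1% of those tested, near the 13.1% of all genes, so that in this fit their number does not stand out. The lower calls were 7.55%, against 15.7% of all genes. Of the 53, 36 had a log2 fold change above 0, as had 50.4% of all genes tested. Higher among cytoplasmic partners was Srgap1, a GTPase-activating protein that binds Robo receptors, with 18.0, 13.9 and 10.8 CPM in GFP and 7.37, 6.15 and 5.19 CPM in Tomato (1.19 ± 0.21, adjusted p = 0.00467 by edgeR). Also higher were Rasa1, a Ras GTPase-activating protein that binds Eph receptors (0.46, adjusted p = 0.00672, and 0.29 when scaled by library size alone), and Sos1, a Ras and Rac exchange factor recruited by Robo (0.54, adjusted p = 0.0157). Draxin, a secreted ligand that binds Dcc and netrin, was higher as well (18.7 against 10.2 CPM on average, 0.88, adjusted p = 0.0137). Lower were Flrt1 (0.446 against 1.41 CPM on average, adjusted p = 0.0128) and Flrt2 (162.6 against 216 CPM, -0.41, adjusted p = 0.0312), surface ligands of Unc5 receptors. Sdcbp, the adaptor syntenin that binds the tail of B-class ephrins (-0.48, adjusted p = 0.0172), and Acp1, a phosphatase that acts on Eph receptors (-0.38, adjusted p = 0.0221), were lower too. Calls of this list were fragile. Scaled by library size alone, 5 were higher and 8 lower, without Tomato replicate 2 edgeR called 3 and 0 (10 and 6 at an unadjusted p under 0.05, adjusted p of Sos1, Flrt1, Sdcbp, Acp1 and Flrt2 0.0505 to 0.0784), and with the replicate number as a block 23 and 9. Other single libraries also ended calls: GFP replicate 1 for Draxin (0.0544), Sos1 (0.0606), Sdcbp (0.0699) and Acp1 (0.0812), GFP replicate 2 for Acp1 (0.0517) and Flrt2 (0.0958), GFP replicate 3 for Sdcbp (0.0650), Acp1 (0.0504) and Flrt2 (0.0864), and Tomato replicate 1 for Flrt2 (0.0579). Acp1 also lost its call after the length and GC correction (-0.19, adjusted p = 0.132).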

How the data were processed

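RNA of sorted cells was sequenced from 150 ng of total RNA per library with an Illumina TruSeq kit, per the labels' protocols. The authors deposited raw read counts per gene in 3 columns, unstranded and for either strand. Trim Galore 0.4.3, STAR 2.5.2b and the build GRCm38 are named, without roles, in the submitters' processing notes. Which annotation the counting used was not given in the sources used here.

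Unstranded counts were used, since the strand columns were nearly equal (ratio 1.002 to 1.006). Reads of overlapping genes on opposite strands can be lost or cannot be told apart there. Names, positions and merged exon lengths came from GENCODE M21 (GRCm38), which matched 49412 of 49671 identifiers. Replicates were no duplicates (chi-square per degree of freedom 28.1 to 120). edgeR 4.0.16 in R 4.3.3 was used with TMM scaling, filterByExpr, robust quasi-likelihood F tests (two-sided), all 6 libraries and no block, and Benjamini-Hochberg adjustment over 15608 genes. Standard errors were derived from the F statistic. Code was tested on simulated data.

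Deviations of same-numbered libraries from their group means were correlated (0.487, 0.210 and 0.422), each above the limit of 0.1. On this evidence alone the numbers were treated as pairs in the blocked alternatives, and the labels do not give such pairs. The main calls and their p-values are unpaired. Blocked values are given where the block changed the call of a member, and for the partner list as counts. Alternatives were scaling by relative log expression or library size, DESeq2 1.42.0, no filter, at least 1 CPM in 3 libraries, the block, offsets for length and GC content from splines with 4 degrees of freedom (alone and with the block), and leaving out each library.

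All 38 members were to be named, and of the partner list the 4 higher and 4 lower with the smallest adjusted p. Genes outside that rule are markers given beside a result. Members and lists were chosen with earlier results of these data known. Ntn3 of the partner list had no matching identifier and was not analysed here.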

Additional observations from a re-analysis of the deposited data

How the results depend on the processing

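No alternative turned the direction of a member or named partner gene that was called. The counts of members higher and lower in GFP, 14 and 5, were 14 and 5 with scaling by relative log expression and with a filter of 1 CPM in 3 libraries, 15 and 5 without a filter and after the length and GC correction, 16 and 6 by DESeq2, 15 and 6 with the replicate number as a block, and 17 and 6 with that correction and the block. Scaled by library size alone they were 11 and 7. Leaving out a library, which also lowers the number of samples, gave 8 to 14 higher and 4 to 6 lower, with the fewest higher without Tomato replicate 2. For partner genes, 8 higher and 4 lower, the replicate block gave 23 and 9, the length and GC correction with the block 23 and 6, library size scaling 5 and 8, and the fit without a filter 8 and 7. Leaving out a library gave 3 to 12 higher and 0 to 5 lower. Of all genes tested, 20.1% were higher and 20.9% lower with the block, and 25.7% and 13.9% with that correction and the block. With library size scaling these shares were 7.23% and 24.7%, and without a filter 6.88% and 9.30%. The cause was not tested. Against the fit without it, the block changed the calls of Ephb1 and Unc5b and of no other member. Within the length and GC correction it changed those of Ephb1, Unc5b and Unc5c.

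Over all genes tested, 2049 were higher and 2456 lower, with library size scaling 1128 and 3851, after the length and GC correction 2771 and 1627, and with the block 3137 and 3256. Members below 1 CPM rest on few reads, and for the 6 members that were not tested, with 1 to 25 reads in all, differences were not detectable at this depth unless a value is given. The Slit2 level per length, like the Robo levels, depends on the length taken: by the longest coding transcript, chosen after seeing the data, it was 14.1 in place of 5.53 RPKM in GFP.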
